A study of Ovis aries with 3 samples.

Results

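XR_001026373.1 and XR_001026376.1 are predicted noncoding transcripts of sheep that had no reads in the duodenum and were read in both regions of the large intestine. They were chosen for this pattern from the exon values themselves, so their lack of duodenum reads is a description and was not tested. They are 2 of 83089 transcripts with reads in at least 1 of 3 libraries. The RNA came from mucosal epithelium of 3 gut regions, duodenum, cecum and the proximal part of the colon, in 3 healthy small-tailed Han ewes aged 11 months. It was pooled into 1 library per region, so no value has a replicate check, and each interval covers the sampling of reads only. RPKM are reads per kilobase of exon and per 1000000 reads of a library's read total, and these totals ran from 46.3 to 53.8 in units of 1000000 reads. A count of 0 in the duodenum allows a share of up to 5.90e-06% of the reads (3 reads). This floor takes no account of the choice by a count of 0. Folds against it use the measured cecum and colon reads without their sampling error, so they are not bounds. The smallest read count listed for an exon was 1, and an exon missing from a file is given here as 0 reads.

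Neither transcript has a gene symbol in the files, in the RefSeq gene table or in the readable part of the study's list of differing transcripts, which is shortened. The prefix XR_ marks a noncoding RNA predicted by RefSeq and XM_ a predicted messenger RNA. Some XR_ transcripts here carry the symbols HOXA9 and HOXA10, so the prefix does not show that the pair are genes of their own. By the positions in the files, XR_001026373.1 lies beside transcripts of HOXA9 and HOXA10, and XR_001026376.1 lies before those of HOXA10. HOX genes encode homeobox transcription factors that give cells their position along the body axis, and in the gut as elsewhere those at the posterior end of a cluster are typically active in posterior segments. Noncoding RNAs are often transcribed from between and across HOX genes, commonly from the opposite strand. The files give positions without chromosome, build or strand, so a shared position does not show that transcripts lie on the same chromosome. For the same reason no sequence of either transcript is shown.

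XR_001026376.1 had 2 exons with reads, spanning positions 68843710 to 68846862, with a summed exon length of 684 bases. XR_001026373.1 had 3 exons with reads, from 68861339 to 68863957, with a summed length of 1409 bases. Between them lay 14476 bases. Between the last exon base of the HOXA10 transcript XR_001039952.1, at 68861239, and the first base of XR_001026373.1 lay 99 bases. The HOXA10 transcript XR_001039951.1 ended slightly earlier, at 68861234. An exon of the unnamed messenger RNA XM_012112295.1, from 68861099 to 68862640, spans these 99 bases by position. The last exon of XR_001026373.1 shared 4 bases with the first exon of the HOXA9 transcripts XM_004007941.2 and XR_001039954.1. HOXA9 and HOXA10 are posterior members of the HOXA cluster. XR_001026376.1 ended 5828 bases before the first HOXA10 exon base. No exon of either transcript was identical to an exon of another transcript, and each formed a gene locus of its own when transcripts with an identical exon and identical reads were joined.

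**Figure D1:**
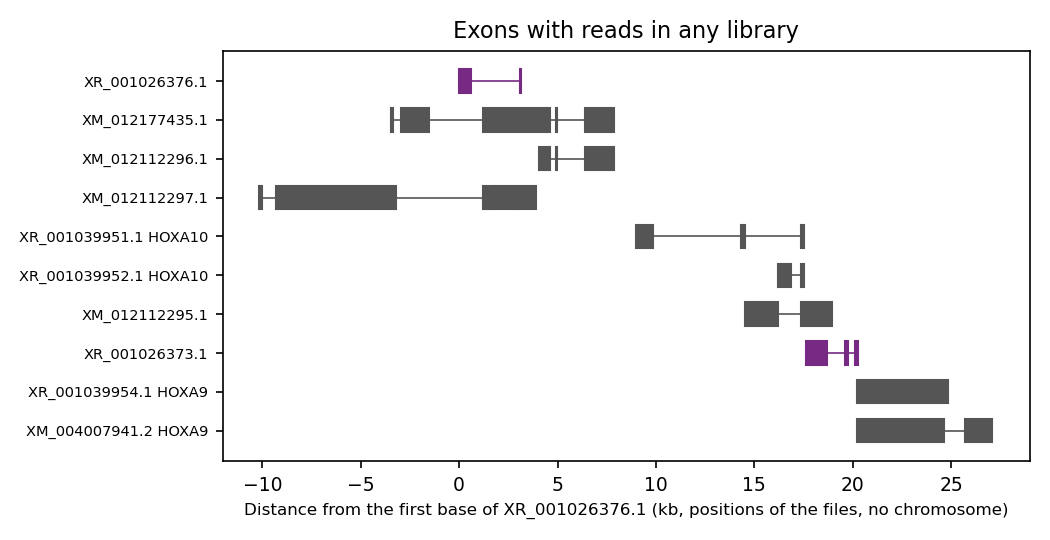
Exons with reads in any library, as boxes, against the distance in kb from the first base of XR_001026376.1, by the positions of the files, which carry no chromosome. The 2 noncoding transcripts are in purple and the HOXA9, HOXA10 and unnamed transcripts beside them in grey. XR_001026373.1 begins after the HOXA10 transcripts and shares 4 bases with the HOXA9 transcripts. Its exon 1 lies within an exon of the unnamed XM_012112295.1.

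For XR_001026373.1 the duodenum library had 0 reads, the cecum library 1391.04 and the colon library 1931.14. Scaled by length and depth, these are levels of 21.3 RPKM for cecum and 25.5 RPKM for colon. At the rate of the cecum the duodenum library would have held 1527 reads of it, and at the rate of the colon 1824. Against the floor of 3 duodenum reads, or 0.0419 RPKM, the cecum level was 509-fold higher and the colon level 608-fold higher.

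For XR_001026376.1 the 3 libraries had 0, 252.73 and 1498.19 reads in the same order. Its level was 7.98 RPKM for cecum and 40.7 RPKM for colon. The duodenum library would have held 277 of its reads at the rate of the cecum and 1415 at the rate of the colon. Against the floor of 3 duodenum reads, here 0.0863 RPKM, the cecum level was 92.5-fold higher and the colon level 472-fold higher. The order of the transcripts thus differed between the regions of the large intestine. In the cecum XR_001026376.1 was 2.67-fold below XR_001026373.1 in RPKM, and in the colon it was 1.60-fold above it. The cecum order rests on exon 1 of XR_001026373.1, which lies within an exon of a messenger RNA by position. Exons 2 and 3 of XR_001026373.1, at 2.95 and 4.31 RPKM for cecum, lay below exon 1 of XR_001026376.1 at 7.97 RPKM.

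The stated choice of the transcripts used reads in cecum and colon but no difference between them. The choice was made with earlier results of these data known, so the comparison of colon with cecum is not independent of it. This comparison was made over all 58311 transcripts with RPKM of at least 1 in a library. It used the Audic-Claverie test and Benjamini-Hochberg adjustment. A transcript was called at a false discovery rate (FDR) below 0.001 and a fold of at least 2. This test compares 2 libraries by the sampling of reads, and says nothing of the variation between ewes. Of the 2 transcripts 1 was called, as higher in the colon, where 5.71% of all transcripts tested were called in either direction, 2.86% as higher in the colon and 2.85% as higher in the cecum. XR_001026376.1 was 5.10-fold higher in the colon (95% Clopper-Pearson interval 4.46 to 5.84, FDR 9.44e-175). On the log2 scale the difference was 2.35, and 0.971% of the transcripts tested had a larger log2 ratio of colon over cecum. The call was lost with the exact test of edgeR, where a biological coefficient of variation of 0.4 was assumed in place of replicates (adjusted p = 0.773). XR_001026373.1 was 1.19-fold higher in the colon (1.11 to 1.28, FDR 1.10e-06), which lies below the 2-fold limit and was not called. The intervals of the transcripts do not overlap on the log2 scale, at 2.16 to 2.55 for XR_001026376.1 and 0.16 to 0.36 for XR_001026373.1. The median log2 ratio of colon over cecum over all transcripts tested was -0.08.

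The reads were spread unevenly over the exons. Exon 1 of XR_001026373.1, 1069 bases long, carried 96.0% of its cecum reads and 95.9% of its colon reads. It had 1334.81 cecum reads (27.0 RPKM) and 1851.6 colon reads (32.2 RPKM). Exon 2, of 185 bases, had 25.29 cecum reads (2.95 RPKM) and 27.56 colon reads (2.77 RPKM). Exon 3, of 155 bases, had 30.94 reads (4.31 RPKM) and 51.98 reads (6.23 RPKM). In the cecum the RPKM of exon 1 was 9.13 times that of exon 2, and in the colon 11.6 times. Exons 2 and 3 were low but covered by reads over most of their length, at 100% and 94.19% for cecum and 100% and 97.42% for colon. Their log2 ratios of colon over cecum, -0.09 (-0.88 to 0.79) and 0.53 (-0.14 to 1.22), have intervals that include 0, while that of exon 1 was 0.26 (0.15 to 0.36).

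In XR_001026376.1, exon 1, of 608 bases, had 224.27 cecum reads (7.97 RPKM) and 1173.86 colon reads (35.9 RPKM). Exon 2 is 76 bases long and had 28.46 cecum reads (8.09 RPKM) and 324.33 colon reads (79.3 RPKM). The exons were thus at nearly the same RPKM in the cecum, whereas in the colon exon 2 was 2.21 times as high as exon 1. Exon 2 is shorter than a read of the study, and how reads spanning exons were counted is not known. Its RPKM may therefore not be comparable with that of exon 1. Exon 2 held 11.3% of the cecum reads and 21.6% of the colon reads. The log2 ratio of colon over cecum was 2.17 (1.97 to 2.39) for exon 1 and 3.29 (2.76 to 3.93) for exon 2, and these intervals do not overlap. Coverage of both exons was at least 98.36% in both libraries.

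**Figure D2:**
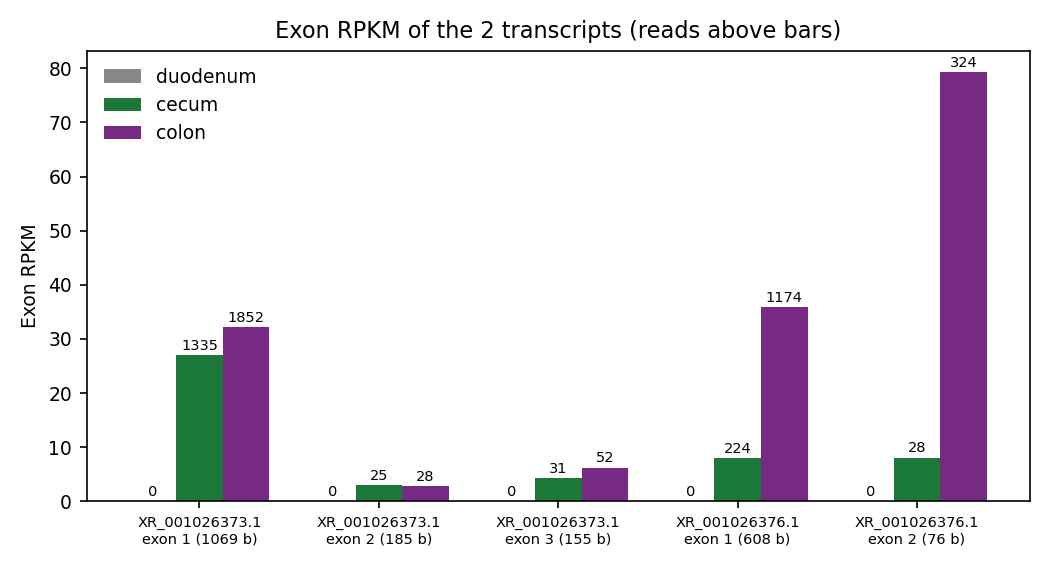
Exon RPKM of the 2 noncoding transcripts in the duodenum (grey), cecum (green) and colon (purple), 1 pooled library per region, with the rounded reads above each bar and exon lengths in bases (b) under it. All 5 exons are at 0 in the duodenum. Exon 1 carries most of the reads of XR_001026373.1, and exon 2 of XR_001026376.1, which is shorter than a read, reaches 79.3 RPKM in the colon.

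Exons of 15 other transcripts overlap an exon of the pair by position, and 5 of these transcripts have no duodenum reads on the overlapping exon. Only these 5 are described further, by the same value that chose the pair. The rest had duodenum reads. Exon 2 of XM_012098049.1, which holds exon 2 of XR_001026376.1 whole, had 552.87, 330.15 and 429.29 reads in duodenum, cecum and colon. Exon 1 of XR_001026918.1, which holds exon 1 of XR_001026373.1 whole, had 63, 13 and 18. Exon 1 of XR_001026373.1 lies whole within exon 3 of the messenger RNA XM_012112295.1, at 68861099 to 68862640. That exon begins at the same base as the last exon of both HOXA10 transcripts. It had 1682.14 cecum reads (23.6 RPKM) and 2263.31 colon reads (27.3 RPKM), a log2 ratio of 0.21 for colon over cecum (0.12 to 0.30), and the interval overlaps that of exon 1 of XR_001026373.1. Summed over its exons XM_012112295.1 had 0, 2014.43 and 2591.65 reads in the 3 libraries.

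Exon 2 of XR_001026376.1 lies whole within exon 3 of XM_012177435.1 and within exon 6 of XM_012112297.1. The former exon had 306.99 cecum reads (1.94 RPKM) and 4041.67 colon reads (22.0 RPKM), the latter 138.79 (3.25 RPKM) and 1493.72 (30.1 RPKM). Their log2 ratios, 3.50 (3.33 to 3.67) and 3.21 (2.96 to 3.47), have intervals that overlap that of exon 2 of XR_001026376.1. They lie above that of exon 1 of XR_001026376.1, which no transcript without duodenum reads overlaps by position. Exon 1 of the messenger RNAs XM_012149906.1 and XM_012178880.1 shares 570 of its 608 bases. That exon had 6, 7.41 and 3 reads in duodenum, cecum and colon. The library kit named in the labels does not keep the strand, so reads of a noncoding transcript and of a messenger RNA across it on the same chromosome cannot be told apart. What part of the reads of the exons of the pair belongs to the overlapping messenger RNAs was not tested.

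An absence of duodenum reads was uncommon at these levels. The pair was chosen for this absence, so the counts and ranks below only describe it. In the duodenum 4073 of 83089 transcripts (4.90%) had no reads, and 115 of these reached 1 RPKM in the cecum or colon. After joining to gene loci, 16373 loci reached 1 RPKM in some library, and 65 of them had no duodenum reads. Among these 65, XR_001026373.1 ranked 4 by RPKM in the cecum and 4 in the colon, and XR_001026376.1 ranked 10 and 3. By reads, 6 other transcripts without duodenum reads had at least as many as XR_001026373.1 in both cecum and colon, and 15 had at least as many as XR_001026376.1.

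**Figure D3:**
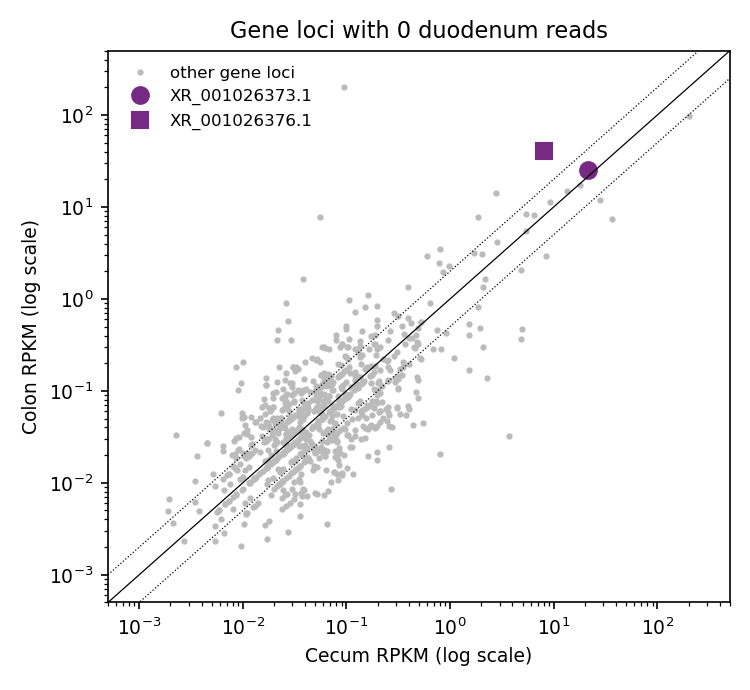
Colon RPKM against cecum RPKM, both on log scales, for the gene loci with 0 duodenum reads and reads in both other libraries, with a line of equality and dotted lines at a 2-fold difference. XR_001026373.1 (circle) lies near equality at 21.3 and 25.5 RPKM, and XR_001026376.1 (square) above the 2-fold line at 7.98 and 40.7 RPKM.

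Loci without duodenum reads were found near the same positions. The stretch from 100 kb before the first base of the pair to 100 kb after the last holds 48 of the 16373 loci by position (0.293%), from whichever chromosomes have genes there. It holds 7 of the 65 loci without duodenum reads (10.8%), the 2 noncoding transcripts included, so this count rests in part on how they were chosen. Transcripts that overlap without an identical exon count as separate loci, so the 7 are not independent. Both HOXA10 transcripts are counted, as are XR_001026373.1 and XM_012112295.1, which overlap. HOXA9 is counted through XR_001039954.1, although XM_004007941.2 of HOXA9 had 4 duodenum reads. The other 5 loci are those of HOXA9 (XR_001039954.1), of both HOXA10 transcripts, of XM_012112295.1, and of XM_012112296.1 joined with XM_012177435.1. Their levels ran from 2.75 to 13.5 RPKM for cecum and from 8.23 to 14.95 RPKM for colon, below XR_001026373.1 in both.

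Of the 4 HOXA9 and HOXA10 transcripts, none was called between colon and cecum, since all had folds below 2. XR_001039954.1 of HOXA9 had 0, 1932.99 and 2801.37 reads in duodenum, cecum and colon (0, 9.12 and 11.4 RPKM). XM_004007941.2 of HOXA9, which lies just outside the choice made here, had 4, 3291.51 and 4179.74 reads. XR_001039951.1 of HOXA10 had 0, 301.92 and 549.91 reads, and XR_001039952.1 had 0, 239.81 and 351.9. The log2 ratios of colon over cecum of these 4 transcripts ran from 0.13 to 0.65, and that of XR_001026373.1 (0.26) lies in this range. XR_001026376.1, at 2.35, lies above it. Among the transcripts by position nearest to it, XM_012112297.1 had 4, 240.0 and 6756.8 reads and was 24.2-fold higher in the colon (FDR 0, too small for double precision). XM_012177435.1 had 0, 757.09 and 4764.47 reads and was 5.41-fold higher. Both were called, and XM_012112296.1, 1.97-fold higher, was not.

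The HOX list as reported here holds 17 transcripts of 15 genes, 14 matched to the RefSeq gene table by accession and 3 to the study's list. Some of these transcripts were picked by the study from these libraries, and both contrasts below share the duodenum library. By RPKM, without a test, 15 of the 17 were higher in the cecum than in the duodenum. For the colon 14 of the 17 were higher, and HOXB1 had 0 reads in both regions. HOXC5 (45.2, 27.0 and 21.0 reads in duodenum, cecum and colon) and HOXD13 (2, 0 and 0 reads) were lower in both than in the duodenum. Of the 13 transcripts that reached 1 RPKM in a library, 11 did so in the cecum or colon and not in the duodenum, so calls against the duodenum are not counted here. HOXA2, near the anterior end of the HOXA cluster, had 60.95, 154.9 and 244.83 reads.

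Between colon and cecum the HOX list was mixed. Of the 13 transcripts tested 1 was called higher in the colon, 4 higher in the cecum and 8 in neither direction, where 2.86% and 2.85% of all transcripts tested were called (5.71% in all). The median log2 ratio of the 13 was -0.39, against -0.08 over all transcripts tested. Of the HOXA cluster, the list as reported holds HOXA2, HOXA9 and HOXA10. Unnamed messenger RNAs at nearby positions have no matched symbol and are not in these counts. Examples are XM_004023180.2, with 2, 52 and 2748.59 reads in duodenum, cecum and colon, and XM_012112306.1, with 116.79, 2382.54 and 2552. HOXB13, the posterior end of the HOXB cluster, was the transcript higher in the colon, with 0, 4.61 and 614.08 reads (0, 0.0705 and 8.07 RPKM) in duodenum, cecum and colon. XR_001026376.1 shared the lack of duodenum reads and the direction of HOXB13, but had 252.73 reads in the cecum against 4.61. The 4 higher in the cecum were HOXB3, HOXB7, HOXC6 and HOXD10, all with duodenum reads.

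**Figure D4:**
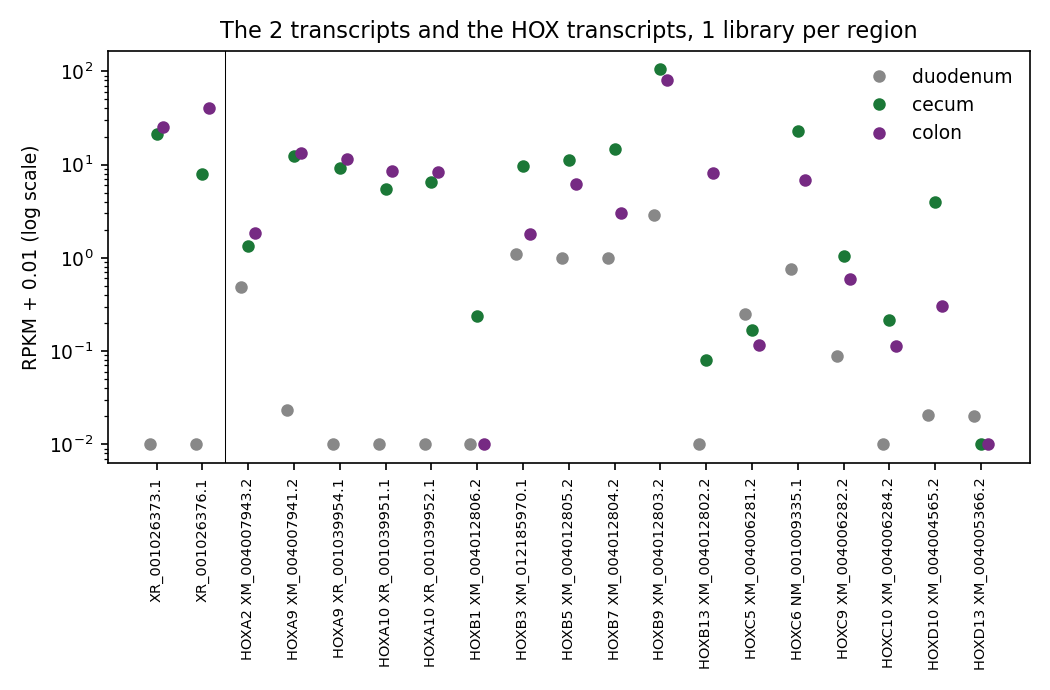
RPKM plus 0.01 on a log scale for the 2 noncoding transcripts (left of the line) and 17 HOX transcripts, ordered by cluster and number, with 1 point per library (duodenum grey, cecum green, colon purple). Points at 0.01 have no reads; XR_001026373.1 and XR_001026376.1 have none in the duodenum, as have the HOXA10 transcripts, XR_001039954.1 of HOXA9, HOXB1, HOXB13 and HOXC10.

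The loci most like each transcript were sought among 808 loci with 0 duodenum reads and reads in both other libraries, by the distance of log2 RPKM in cecum and colon. With 3 libraries, of which 1 is at 0 for all, such a likeness rests on 2 values. Nearest to XR_001026373.1 was the locus of XM_012110427.1, at a distance of 0.18, with 20.9 RPKM for cecum and 22.4 for colon. It was followed by XM_012145505.1 (0.61), XM_012112295.1 (1.01), LOC101115226 (XM_004016039.2, 1.15) and HOXA9 (XR_001039954.1, 1.69). XR_001026376.1 had no such close neighbour. Its 5 nearest loci lay at distances from 1.63 to 2.17 and were XM_012112295.1, XM_012110427.1, XM_012145505.1, HOXA9 (XR_001039954.1) and XM_012112296.1. Of these, the last was at 2.75 RPKM for cecum and 14.0 for colon.

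Levels of markers that do not bear on the pair are given for the labelled regions. The study chose its qRT-PCR transcripts among those that differed between regions, in part in these libraries. These levels therefore do not check the labels. In the order duodenum, cecum and colon, FABP1, a fatty acid binding protein of absorptive enterocytes, was at 7692, 966.8 and 413.5 RPKM. SPINK4 of goblet cells was at 843.5, 4905 and 21240 RPKM, and the mucous protein TFF2 at 1470, 2060 and 127200 RPKM. JCHAIN of plasma cells was at 6626, 3659 and 662.7 RPKM. In pooled bulk tissue, fewer cells of a type and less RNA per cell cannot be told apart, and which cells carry the noncoding transcripts was not tested.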

How the data were processed

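Per the labels and the methods of the study, RNA of mucosal epithelium was extracted with Trizol, made into libraries with a TruSeq RNA kit and sequenced on an Illumina HiSeq as paired-end reads. The authors deposited, for each exon of each annotated transcript, an estimated read count (an expected count, 87.8% to 88.3% of them not whole), its RPKM made from that count, the exon length and the read total in the file header, and the percent of the exon covered. The methods name Bowtie2 and RSEM with sheep genome v4.0, and the submitters' processing notes name BWA and Bowtie 0.12.2; the build of the positions in the files is not given in the sources used here, nor how reads spanning exons were counted.

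Exon counts were summed per transcript and rounded for the tests. RPKM of a transcript was its summed count over its summed length of exons with reads in any library and the read total. Transcripts were joined to a gene locus where an exon had identical positions and identical counts in all 3 libraries. Each pair of libraries was tested by the method of Audic and Claverie, on both sides, and Benjamini-Hochberg adjustment over 58311 transcripts with RPKM of at least 1 in a library, at FDR below 0.001 and a fold of at least 2, as in the study's methods. The study also ran the test on Texel sheep, kept transcripts that differed in both sets and screened them by expression pattern. None of this was done here, so the calls are not those of the study. With 1 library per region in this series, no replicate was available. Intervals are exact 95% Clopper-Pearson intervals, and intervals and floors cover counting error only. In counts simulated for colon and cecum with 3-fold changes in transcripts expected to have over 20 cecum reads (seed 1), 200 of 200 changes among 58311 transcripts were recovered, with 0 false calls; the simulation had no variation between animals.

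The alternatives were pseudocounts of 0.1 and 1, other filters, folds, scalings and exon summaries, gene loci, a floor of 1 read, and edgeR 4.0.16 (R 4.3.3) with an assumed coefficient of variation of 0.4; values without exon 1 and of exon 1 alone were added after seeing the data. Named are the pair, transcripts near or overlapping it by position (within 100 kb), the HOX list, the 5 loci most like each transcript, and 4 markers of the list of transcripts the study measured by qRT-PCR, of which 10 of 12 were in the files. The HOX symbols from the RefSeq gene table of assembly ARS-UI_Ramb_v3.0, which matched 8735 transcripts of the files by accession without version, were added after the files were seen, since 3 of 13 listed transcripts were in them. 1 transcript of the HOX list is not reported here and is left out of its counts and medians. The transcripts and lists were chosen with earlier results of these data known. Scripts used scipy 1.17.1, pandas 2.3.3, numpy 2.4.6 and matplotlib 3.10.9 under Python 3.11.15.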

Additional observations from a re-analysis of the deposited data

How the results depend on the processing

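The higher level in the colon than in the cecum kept its direction for both noncoding transcripts under all 10 alternatives run for each. Some of these could not change it. A pseudocount cannot turn the sign, and each transcript is alone in its gene locus. The pseudocount, median exon and highest exon settings also kept the FDR of the main test, so for them only the fold was checked anew. The log2 ratio ran from 0.25 to 0.53 for XR_001026373.1, which was never called, and from 2.17 to 3.29 for XR_001026376.1. XR_001026376.1 lost its call only with edgeR and the assumed coefficient of variation of 0.4 (log2 ratio 2.35, adjusted p = 0.773), where the assumed variation is larger than that of read sampling. The number of transcripts called higher in the colon, 1667, became 2721 without a filter, 634 with RPKM of at least 10, 495 for gene loci, 649 with a fold of at least 4 and 70 with edgeR. The number higher in the cecum, 1663, became 2681, 493, 482, 313 and 26 in the same order. Median-ratio scaling gave 1928 and 1371. Set against 1 duodenum read in place of the floor of 3 reads, the ratio of XR_001026373.1 was 1527 for cecum and 1824 for colon. The ratio of XR_001026376.1 was 277.4 and 1415. A count of 0 allows more than 1 read, and neither floor gives a lower bound. By RPKM in place of reads, 2 transcripts without duodenum reads were at least as high as XR_001026373.1 in both libraries, and 1 was at least as high as XR_001026376.1. By reads over gene loci in place of transcripts, the numbers 6 and 15 became 7 and 10. No paired analysis was possible because each region has 1 library. For exons 2 and 3 of XR_001026373.1 the intervals of the log2 ratio of colon over cecum include 0 and end at 0.79 and 1.22.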

Other observations

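Among the HOX transcripts the largest level was that of HOXB9, with 2.88, 104.7 and 79.9 RPKM in duodenum, cecum and colon. HOXD10 had 1, 330.2 and 28.51 reads, so that it was called higher in the cecum than in the colon, opposite to XR_001026376.1. HOXC6 (42.93, 1180.96 and 417.29 reads), HOXB7 (85.91, 1151.41 and 274.72) and HOXB3 (56.01, 454.79 and 97.65) were also called higher in the cecum than in the colon. HOXD13 had 2 reads in the duodenum and 0 in the other libraries. HOXB1, HOXC5, HOXC10 and HOXD13 stayed below 1 RPKM in every library and were not tested.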
